A study of Mus musculus with 12 samples.

Results

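Enzymes linked to the supply of NADPH were followed in mouse ovaries as a set of 9 genes: Me1, Me2, G6pdx, Pgd, Tkt, Taldo1, Idh1, Nadk and Mthfd1. NADPH is the reducing agent of fatty acid, sterol and steroid synthesis. Of the set, Me2 is mitochondrial and mainly reduces NAD, Tkt and Taldo1 make no NADPH themselves, and Nadk makes NADP. A probe was taken as a member where the array's annotation gave it exactly 1 gene symbol and that symbol was on the list. This rule found 8 probes for 7 of the 9 genes, out of 36227 probes and 18069 genes with a probe of their own in the whole series. Me2 had 2 probes and each of the other 6 genes had 1. G6pdx and Pgd, the enzymes of the oxidative pentose phosphate steps, had no probe named for them alone and are not analysed here. All 8 probes passed the filter on low values described below.

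The ovaries came from lethal yellow (LY) mice, which carry the dominant agouti allele Ay over the nonagouti allele a (C57BL/6J Ay/a) and become obese as adults, and from lean black a/a littermates. There were 4 groups of 3 animals: black and LY mice aged 90 days, and black and LY mice aged 180 days. Every animal of every group, controls included, received the GnRH antagonist Antide at 10 microg/g on days 1 and 4 and equine chorionic gonadotropin (eCG) at 1 IU per 5 g body weight, and tissue was collected on day 7. All values therefore describe ovaries under a suppressed gonadotropin axis and an eCG stimulus, not a natural cycle. The Ay mutation is a deletion that removes the coding part of the neighbouring gene Raly and puts agouti under the Raly promoter, so LY animals express agouti in most tissues and carry 1 copy of Raly fewer. One ovary of each animal was hybridized to its own 1-colour CodeLink array, with no pooling.

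NADPH reaches cytosolic synthesis by several routes. Malic enzyme and cytosolic isocitrate dehydrogenase each release it while oxidizing a carbon acid, the oxidative pentose phosphate pathway makes it from glucose 6-phosphate, and the folate cycle yields it when methylene-tetrahydrofolate is oxidized. NAD kinase makes the NADP that all of them reduce. In steroidogenic tissue NADPH is consumed by the synthesis of cholesterol and by the P450 enzymes that turn cholesterol into steroid hormones.

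Intensities are relative intensity units, in which the median probe of an array equals 1, and differences are log2 of LY over black with their standard errors (SE). A probe was tested where at least 1 group averaged 0.2 units or more, which left 31359 probes. On every LY array agouti read 95.7 to 111 units and on every black array 0.169 to 0.368 units, which matched the genotype label of each array. Inha and Inhba, granulosa cell genes, averaged 66.4 to 135 units over the groups, Cyp17a1 of theca cells 130 to 185 units, and Zp3 of oocytes 18.7 to 31.4 units, so defining ovarian markers were present. Pearson correlations of log2 values were 0.970 to 0.987 between arrays of a group, 0.962 to 0.984 between genotypes of an age and 0.918 to 0.938 between ages. The study ran the 180-day arrays first, and deposited medians differed between the ages (1.00 and 1.04), so effects of age and of the array run cannot be told apart.

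The members were chosen by gene symbol and role, with the 180-day difference of Me1 known, so their 180-day differences are given as a description, with no test. At 180 days the estimate was above 0, that is higher in LY ovaries, for 6 of the 7 measured genes (55.9% of all probes tested) and below 0 for Me2. At 90 days it was below 0 for all 7 (50.9% of all probes), and none passed the test. The median difference over the 7 genes was 0.41 at 180 days and -0.27 at 90 days on the log2 scale, against 0.03 and -0.0039 over all probes tested. For Me1, Tkt, Idh1 and Nadk the genotype groups did not overlap at either age, with LY higher at 180 days and lower at 90 days.

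**Figure D1:**
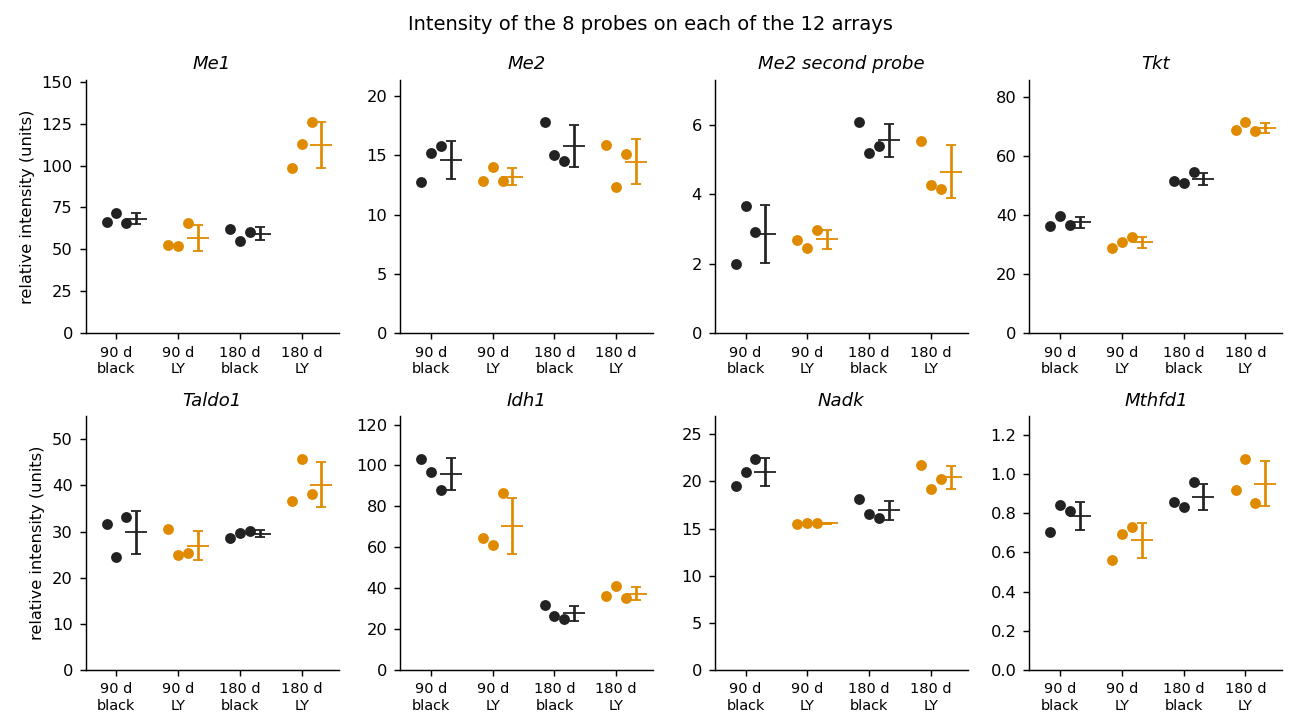
Relative intensity (units, linear axis from 0) of the 8 probes on each of the 12 arrays, black symbols for black mice and orange ones for LY mice. Each point is 1 array, and the bar beside it is the mean ± SD of 3 arrays. Me1 in 180-day LY ovaries (98.5 to 126 units) stands above every other group, and Idh1 reads 60.8 to 103 units at 90 days and 24.7 to 41.1 units at 180 days.

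Promoter sequences of these 4 genes are shown because their probes crossed between the ages, from 250 bases before to 50 bases after the transcription start in RefSeq on GRCm38.p6, each on its gene's own strand and 5′ to 3′. The windows are chr9:86695865-86696164 (minus strand) for Me1, chr14:30548881-30549180 (plus strand) for Tkt, chr1:65186430-65186729 (minus strand) for Idh1 and chr4:155562131-155562430 (plus strand) for Nadk. Capitals mark the letters of motifs searched on both strands, namely TGACNNNGC (the core of the antioxidant response element bound by NRF2), GGGCGG (the GC box bound by Sp factors), CCAAT and TCACNCCAC (the core of the sterol regulatory element).
Me1: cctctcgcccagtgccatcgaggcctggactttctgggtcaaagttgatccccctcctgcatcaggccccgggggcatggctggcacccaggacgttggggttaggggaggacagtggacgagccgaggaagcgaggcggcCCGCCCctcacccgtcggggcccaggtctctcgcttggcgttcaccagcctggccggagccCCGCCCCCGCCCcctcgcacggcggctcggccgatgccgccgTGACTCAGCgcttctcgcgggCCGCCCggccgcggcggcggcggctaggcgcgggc
Tkt: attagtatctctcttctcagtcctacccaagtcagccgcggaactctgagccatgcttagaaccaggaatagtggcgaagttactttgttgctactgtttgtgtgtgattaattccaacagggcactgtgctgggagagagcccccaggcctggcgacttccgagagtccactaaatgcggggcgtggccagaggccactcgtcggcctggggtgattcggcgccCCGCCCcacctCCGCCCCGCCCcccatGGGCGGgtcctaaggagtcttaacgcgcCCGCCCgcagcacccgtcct
Idh1: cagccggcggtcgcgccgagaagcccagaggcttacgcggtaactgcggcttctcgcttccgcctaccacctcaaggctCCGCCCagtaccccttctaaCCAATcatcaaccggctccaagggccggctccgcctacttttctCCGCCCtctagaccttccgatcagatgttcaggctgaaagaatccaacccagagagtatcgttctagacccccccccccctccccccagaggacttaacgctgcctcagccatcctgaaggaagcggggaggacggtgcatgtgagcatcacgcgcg
Nadk: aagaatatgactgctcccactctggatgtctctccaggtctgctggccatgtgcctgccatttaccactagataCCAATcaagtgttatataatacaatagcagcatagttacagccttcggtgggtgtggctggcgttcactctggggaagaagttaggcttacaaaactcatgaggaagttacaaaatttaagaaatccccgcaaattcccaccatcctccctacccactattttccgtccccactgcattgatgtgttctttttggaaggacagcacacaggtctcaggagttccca

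The antioxidant response core was found in the Me1 window, as TGACTCAGC starting at position -6 counted from the transcription start at +1, and in no other window of the 6 measured genes with a promoter entry. Of 32851 mouse promoters of the same length 12.4% held it. The unmeasured G6pdx held it too, at -57. The GC box occurred 4 times in Me1, of which 2 adjoin, 5 times in Tkt, of which 2 overlap by 1 base, 2 times in Idh1 and not in Nadk, and 35.7% of all promoters held at least 1. CCAAT, found in 37.4% of all promoters, stood in the windows of Idh1 (-151) and Nadk (-176) but not in those of Me1 and Tkt. The sterol regulatory core, present in 1.2% of all promoters, was in none of the 8 members with an entry. These matches describe letters in a window and were not tested as sites.

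Me1, the cytosolic malic enzyme (chr9:86581363-86695914), oxidizes malate to pyruvate and reduces NADP. In 180-day black ovaries it read 62.2, 54.8 and 60.6 units (59.2 ± 3.88, SD, n = 3), and in 180-day LY ovaries 98.5, 113 and 126 units (113 ± 13.8). Every LY value lay above every black value, with a gap wider than the whole black range. The difference was 0.92 (SE 0.12), or 1.89-fold. It was known when the genes were chosen, so it is given as a description only. With each array left out in turn the log2 difference was 0.84 to 1.01.

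In 90-day ovaries Me1 ran the other way. Black mice had 66.5, 71.9 and 66.0 units (68.1 ± 3.29) and LY mice 52.5, 52.1 and 65.6 units (56.8 ± 7.67). The groups did not overlap, but the highest LY array lay just under the lowest black array. The difference of -0.27 (SE 0.12), 0.829-fold with a 95% interval of 0.689 to 0.997, did not pass limma's test after Benjamini-Hochberg adjustment over all probes (adjusted p = 0.370).

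Me2, the mitochondrial malic enzyme, mainly reduces NAD and so stands apart from the cytosolic suppliers. Its brighter probe read 17.8, 15.0 and 14.6 units in 180-day black and 15.9, 12.4 and 15.2 units in 180-day LY ovaries, a difference of -0.13 (SE 0.13). At 90 days it read 12.8, 15.2 and 15.8 units in black and 12.8, 14.0 and 12.8 units in LY ovaries, a difference of -0.14 (SE 0.13, limma adjusted p = 0.683), with a 95% interval of 0.748 to 1.10 for the fold. The genotypes overlapped at both ages. The second Me2 probe, 4.15 to 6.08 units at 180 days and 1.99 to 3.65 units at 90 days, gave -0.27 (SE 0.20) and -0.04 (SE 0.20, limma adjusted p = 0.956). Both Me2 probes were lower in LY at 180 days, where Me1 was higher.

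Tkt and Taldo1, transketolase and transaldolase, shuttle carbon between the pentose phosphates and glycolysis and make no NADPH themselves. Tkt (chr14:30549131-30574724) read 51.4, 50.9 and 54.6 units in 180-day black ovaries (52.3 ± 2.04) and 69.0, 71.6 and 68.4 units in 180-day LY ovaries (69.7 ± 1.68). The gap between the groups was wider than the range within either, and the difference was 0.41 (SE 0.08), or 1.33-fold. At 90 days black ovaries had 36.2, 39.8 and 36.5 units (37.5 ± 1.98) and LY ovaries 28.8, 31.0 and 32.4 units (30.7 ± 1.85). The 90-day groups did not overlap either, and the difference of -0.29 (SE 0.08, 0.819-fold, 95% interval 0.724 to 0.926) did not pass after adjustment over all probes (limma adjusted p = 0.183).

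Taldo1 (chr7:141392160-141402976) shared the 180-day direction but not the 90-day separation. It read 28.6, 29.7 and 30.2 units in 180-day black ovaries (29.5 ± 0.783) against 36.7, 45.8 and 38.1 units in LY ovaries (40.2 ± 4.92), a difference of 0.44 (SE 0.14), or 1.36-fold, without overlap. The LY replicate at 45.8 units accounts for most of the LY spread. At 90 days the values were 31.7, 24.6 and 33.1 units in black and 30.5, 24.9 and 25.3 units in LY ovaries, which overlapped. That difference was -0.14 (SE 0.14, 0.907-fold, 95% interval 0.737 to 1.12, limma adjusted p = 0.703).

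Idh1 (chr1:65158616-65186479), the cytosolic and peroxisomal NADP-dependent isocitrate dehydrogenase, had the lowest 90-day estimate of the 7 genes under median scaling. At 90 days black ovaries read 103, 96.7 and 87.8 units (96.0 ± 7.76) and LY ovaries 64.4, 60.8 and 86.3 units (70.5 ± 13.8). LY replicate 3 lay just under the lowest black array, and the other LY arrays were well below. The difference was -0.46 (SE 0.15), 0.728-fold with a 95% interval of 0.579 to 0.914, and did not pass the test (limma adjusted p = 0.234). At 180 days black ovaries read 31.9, 26.1 and 24.7 units (27.6 ± 3.79) and LY ovaries 35.9, 41.1 and 34.9 units (37.3 ± 3.34). The 180-day groups did not overlap, and the difference was 0.44 (SE 0.15), or 1.36-fold.

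Nadk (chr4:155562381-155591001), the cytosolic NAD kinase, had the smallest adjusted p of the members at 90 days. LY ovaries read 15.5, 15.5 and 15.6 units (15.5 ± 0.0771) and black ovaries 19.5, 21.0 and 22.4 units (21.0 ± 1.46). The LY arrays were almost identical, and all lay below the black arrays by more than the black range. The difference was -0.43 (SE 0.09), 0.742-fold with a 95% interval of 0.650 to 0.847, and did not pass (limma adjusted p = 0.0897). At 180 days black ovaries read 18.1, 16.5 and 16.1 units (16.9 ± 1.04) and LY ovaries 21.7, 19.2 and 20.3 units (20.4 ± 1.26), a difference of 0.27 (SE 0.09), or 1.21-fold, without overlap.

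Mthfd1 (chr12:76254406-76319820), the trifunctional cytosolic folate enzyme whose dehydrogenase step reduces NADP, had the weakest signal. It read 0.858, 0.832 and 0.960 units in 180-day black and 0.921, 1.08 and 0.854 units in 180-day LY ovaries, which overlapped with a difference of 0.10 (SE 0.13). At 90 days it read 0.704, 0.843 and 0.811 units in black and 0.562, 0.697 and 0.728 units in LY ovaries, also overlapping, with a difference of -0.25 (SE 0.13, 0.840-fold, 95% interval 0.688 to 1.03, limma adjusted p = 0.438). The 95% intervals given here are for a single probe and were not widened for the number of probes.

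**Figure D2:**
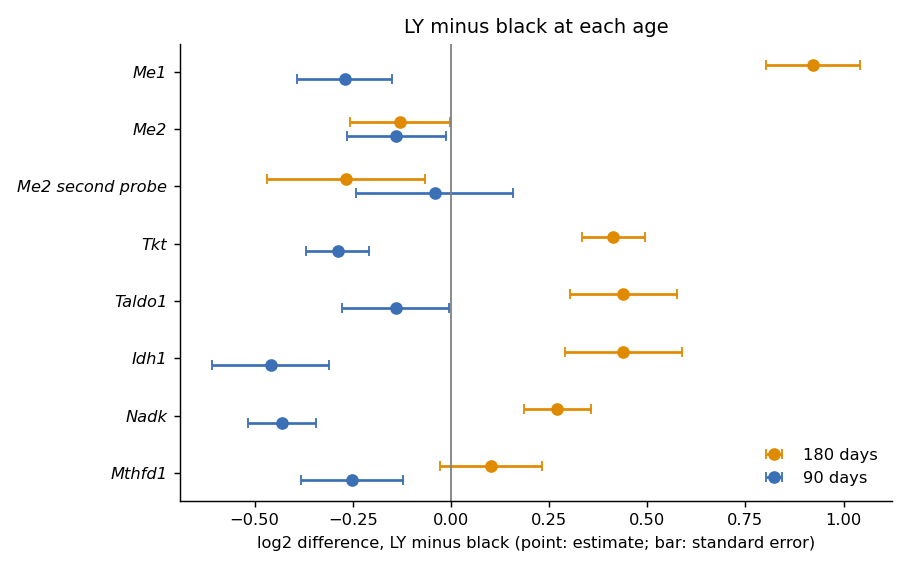
Log2 difference, LY minus black, of each of the 8 probes at 180 and at 90 days, with bars of 1 SE either side from the limma fit of 12 arrays. At 180 days 6 of the 7 genes lie above 0, led by Me1 at 0.92, and at 90 days all 7 lie below 0, down to Idh1 at -0.46.

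Among all probes, 14 of 31359 (0.0446%) passed at 90 days, 2 higher and 12 lower in LY, and 0 of the 8 member probes did. At an unadjusted p under 0.05 there were 4 member probes (Me1, Tkt, Idh1 and Nadk) where 13.3% of all probes reached it. In a fit with an intensity trend in the spread Nadk passed, the only member to do so in any alternative with adjusted p-values, and the methods' t-test gave 0 members after Benjamini-Hochberg adjustment and 2 at the unadjusted threshold. At 180 days 5 genes had LY values wholly above black values, where 14.2% of all probes did, and at 90 days 4 had LY values wholly below, where 9.57% did. The same 4 genes did so at both ages, where 1.82% of all probes did and 0.422% crossed the opposite way. The 180-day part of these counts entered the choice of genes, so nothing is read from it.

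Of the 7 genes, 6 were among the brightest 10% of probes, and bright probes as a whole leaned the same way. In the brightest 10% of probes the median difference was 0.07 at 180 days and -0.06 at 90 days, and 5.91% of them had non-overlapping groups with LY higher at 180 days and lower at 90 days. At 180 days alone 25.5% of the brightest probes had LY values wholly above black values, and at 90 days alone 14.9% had them wholly below. By sign alone, 48.8% of the brightest probes were above 0 at 180 days and below 0 at 90 days, against 27.8% of all probes tested. The part of this lean in the members' values was not tested.

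**Figure D3:**
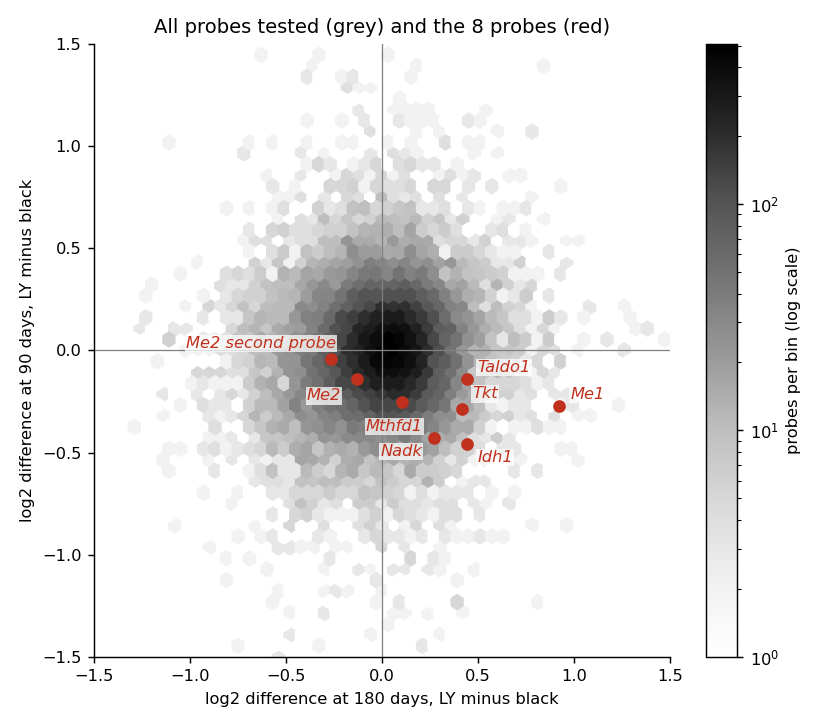
Log2 difference, LY minus black, at 180 days (horizontal) against 90 days (vertical), with all tested probes as grey bins (log colour scale, probes per bin) and the 8 probes in red. The axes run from -1.5 to 1.5, and 349 probes lie outside. Points of 6 genes sit at lower right, and both Me2 probes sit at lower left.

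Scaling changed the size of several differences. With quantile normalization the 180-day difference was 0.17 for Tkt, 0.24 for Taldo1 and 0.27 for Idh1, against 0.41, 0.44 and 0.44 with median scaling. The 90-day difference under quantile normalization was -0.10 for Me1, -0.25 for Idh1 and -0.48 for Tkt. With cyclic loess, an alternative chosen after seeing the data, it was -0.17 for Me1, -0.19 for Tkt and -0.05 for Taldo1. The sign of each of the 7 genes was kept at both ages under all 24 alternatives run.

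**Figure D4:**
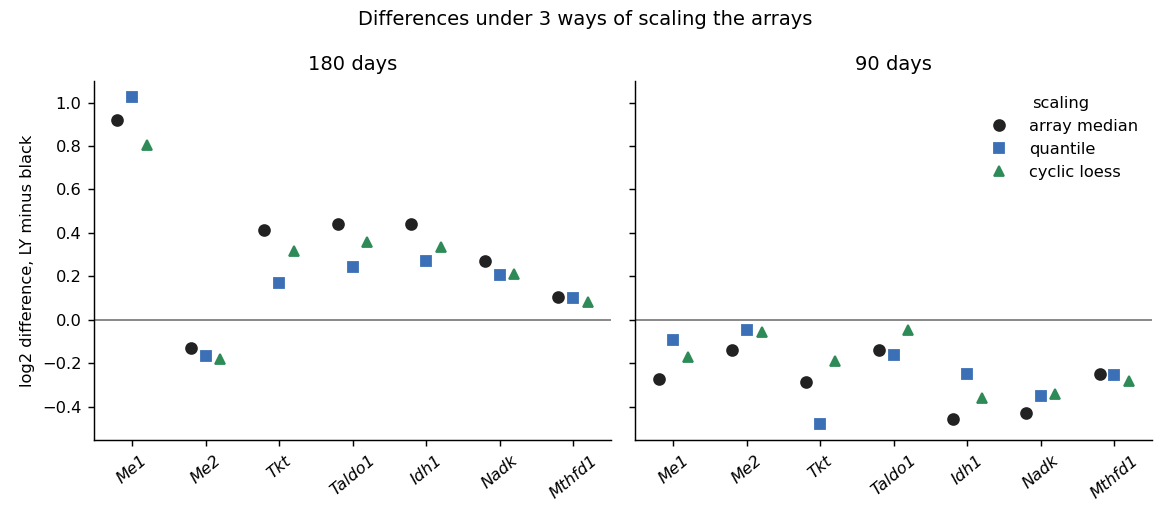
Log2 difference, LY minus black, of each of the 7 genes at each age under median, quantile and cyclic loess scaling of the 12 arrays. Under quantile normalization the point that moves most at 180 days is Tkt, from 0.41 to 0.17. At 90 days it is Idh1, from -0.46 to -0.25, followed by Tkt, from -0.29 to -0.48. No point crosses 0.

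The age difference of the genotype effect, given as a description because it holds the 180-day arrays, was 1.19 (SE 0.17) for Me1, 0.90 (SE 0.21) for Idh1, 0.70 (SE 0.11) for Tkt, 0.70 (SE 0.12) for Nadk, 0.58 (SE 0.19) for Taldo1, 0.36 (SE 0.18) for Mthfd1 and 0.01 for the brighter Me2 probe. Limma called 0 of the 31359 probes (0.00%) for this difference, with 3799 (12.1%) at an unadjusted p under 0.05. The median over the 7 genes was 0.70 against 0.03 over all probes.

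Between 90 and 180 days the genes moved in different directions, and for these values age cannot be told apart from the set of arrays. Idh1 at 180 days was 0.286-fold its 90-day level in black ovaries (log2 -1.80) and 0.534-fold in LY ovaries (log2 -0.91). Tkt was higher at 180 days in both, by 0.48 in black and 1.18 in LY ovaries on the log2 scale. Me1 differed by -0.20 in black and by 0.99 in LY ovaries, and Nadk by -0.31 in black and 0.39 in LY ovaries. Of the 8 member probes 4 passed in black and 7 in LY ovaries, where 46.8% and 47.2% of all probes did. The 180-day results were known when the genes were chosen, so these counts are descriptions and test nothing about the genes.

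Across the 12 arrays, with the mean of each age taken away, Me1 and Tkt were the most alike of the members (Pearson r = 0.91), followed by Tkt with Idh1 (r = 0.82), Tkt with Nadk (r = 0.81) and Me1 with Idh1 (r = 0.78). Me1 and Me2 gave r = -0.21. These correlations are descriptions over arrays that share the genotype groups: with each group's own mean taken away the value was 0.52 for Me1 and Tkt and -0.15 for Tkt and Nadk. The genes most like Me1 over the whole array by the first measure were Agpat3 (r = 0.962), the transferrin receptor Tfrc (r = 0.960), the sterol dehydrogenase Nsdhl (r = 0.958), Pigt (r = 0.953) and Pex7 (r = 0.953). Tfrc was also the gene most like Tkt (r = 0.956). The nearest genes to the others were Cox4i2 for Me2 (r = 0.897), Tcaf2 for Taldo1 (r = 0.931), Mrps12 for Idh1 (r = 0.938), Faf2 for Nadk (r = 0.948) and Arid1b for Mthfd1 (r = 0.927).

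Genes around these enzymes were taken from lists of the rest of the pentose phosphate pathway, other NADPH and NADP enzymes, the folate cycle and the citrate-pyruvate cycle, which hold 30 genes, of which 23 had a probe and were tested. Limma called 0 of the 23 at either age (background 0.0446% at each). At an unadjusted p under 0.05 limma gave 14 at 180 days (3753 of all 31359 probes) and 5 at 90 days (4163 of all probes, 13.3%). The methods' t-test gave 10 and 3 (4202 and 2799 of all probes). At 180 days 17 were above 0 (55.9% of all probes), at 90 days 17 were below 0 (50.9%), and 13 did both (27.8%). The groups did not overlap at either age, with LY higher at 180 days and lower at 90 days, for 6 of them: H6pd, Pgls, Aldh1l1, Slc25a1, Mdh1 and Mdh2. Of all probes 1.82% did so, and of the brightest 10% of probes 5.91%. These lists were chosen with earlier results of these data known, so nothing is read from their 180-day counts.

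In the pentose phosphate list, 7 of 8 genes tested, the median difference was -0.0046 at 180 days and -0.13 at 90 days. H6pd, which makes NADPH inside the endoplasmic reticulum, gave 0.21 at 180 days and -0.35 at 90 days (limma adjusted p = 0.208). Pgls, the lactonase of the oxidative branch, gave 0.22 and -0.34 (limma adjusted p = 0.159). Rpe, the pentose phosphate epimerase, gave -0.0046 and 0.02, and Rpia, the isomerase, -0.02 and -0.13. At 180 days Tkt and Taldo1 gave 0.41 and 0.44 with median scaling. With quantile normalization they gave 0.17 (SE 0.12) and 0.24 (SE 0.26). Tktl1 and Tktl2 of this list averaged 0.131 to 0.221 and 0.313 to 0.393 units (brighter probe), near the 0.2 unit limit. In the list of other NADPH and NADP enzymes, 6 of 7 tested, the medians were 0.09 and -0.15. Me3, the mitochondrial NADP-dependent malic enzyme, gave -0.57 at 180 days with LY wholly below black and -0.08 at 90 days. Nnt, the mitochondrial transhydrogenase, gave -0.12 and -0.23, Nadk2, the mitochondrial NAD kinase, 0.03 and 0.07, and Aldh1l1, the cytosolic formyltetrahydrofolate dehydrogenase, 0.40 and -0.23.

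The 4 folate cycle genes tested of 8 had medians of 0.27 and -0.03, and Mthfd2, the mitochondrial counterpart of Mthfd1, gave 0.58 and 0.04. The citrate-pyruvate cycle, which feeds malate to Me1 while exporting acetyl groups, had the highest 180-day median of these lists, 0.36, and -0.21 at 90 days over 6 of 7 genes. Its citrate carrier Slc25a1 gave 0.33 and -0.54 (limma adjusted p = 0.113) and its citrate lyase Acly 0.59 and -0.43 (limma adjusted p = 0.367). Of 12 genes tested of 19 on a list of NADPH users, limma called 1 at 180 days, where 0.0446% of all probes were called. It was the lanosterol demethylase Cyp51 at 1.31 (limma adjusted p = 0.0289), which gave -0.13 at 90 days (limma adjusted p = 0.746). A second, dimmer Cyp51 probe gave 1.13 at 180 days and was not called (limma adjusted p = 0.115), and it gave 0.26 at 90 days. The 180-day counts of this list are descriptions, since earlier results were known when it was chosen. The medians of the list were 0.22 and -0.22. The list includes the sterol dehydrogenase Nsdhl (0.91 and -0.19), which oxidizes its substrate and so is not itself an NADPH consumer. At an unadjusted p under 0.05 there were 5 of the 12 at 180 days and 4 at 90 days by limma, and 6 and 1 by the methods' t-test. Of 10 NRF2 target genes tested of 11, limma called 0 at either age, with 1 at 180 days and 3 at 90 days at an unadjusted p under 0.05 (2 and 2 by the methods' t-test), and the medians were 0.04 and -0.13. The shares of all probes given above for both tests, such as 13.3% by limma at 90 days, are the background for these counts too. Values of both ages for all of these genes come from the same fit and the same control arrays as the members.

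**Figure D5:**
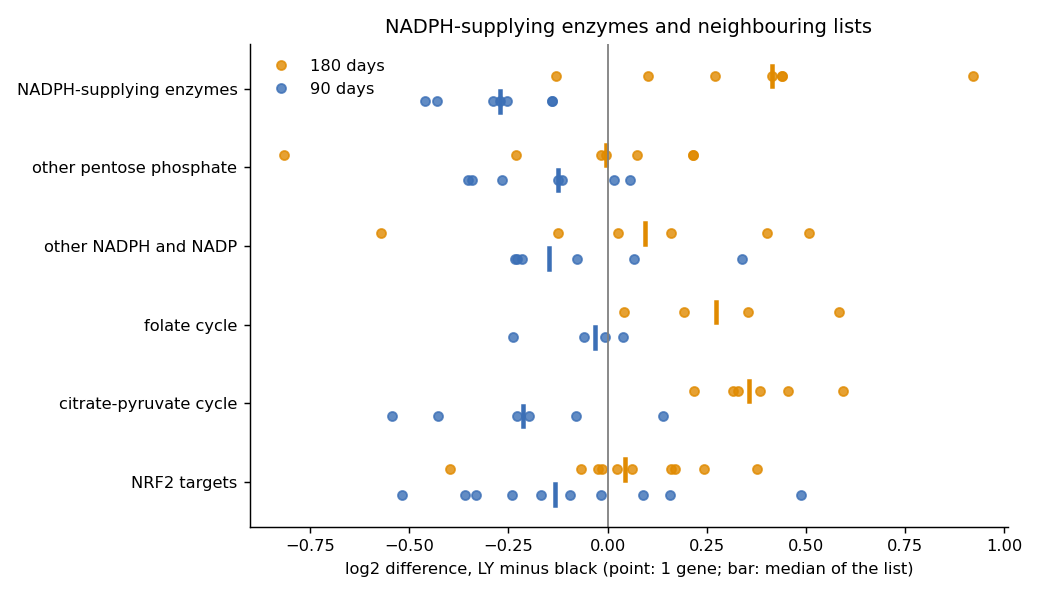
Log2 difference, LY minus black, of each tested gene of the member list and of 5 related lists at 180 and at 90 days, with the list median as a bar. The members' medians are 0.41 and -0.27, and the citrate-pyruvate cycle's are 0.36 and -0.21.

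In a whole ovary, fewer cells of a type and less RNA per cell cannot be told apart. At 180 days the summed intensity of 8 of 9 granulosa markers was 238 to 318 units in black and 172 to 230 units in LY ovaries, and that of the 7 oocyte markers 55.0 to 72.7 and 36.7 to 52.6 units, with no overlap in either. At 90 days both sums overlapped, at 271 to 364 and 270 to 394 units for granulosa and 49.3 to 64.7 and 57.3 to 59.7 units for oocyte markers. Bright genes weigh most in such sums. Taken singly by the brightest probe, only Inhba and Hsd17b1 of the granulosa markers did not overlap at 180 days, and Amh was above 0 (0.10). Of the oocyte markers only Zp2 and Zp3 did not overlap then, and Zp1 was above 0 (0.03). The summed 2 of 4 theca markers overlapped at both ages. The adipocyte markers, 6 of 8, overlapped as well, at 20.0 to 44.7 and 25.4 to 27.4 units at 180 days and at 13.9 to 68.2 and 9.99 to 41.4 units at 90 days. Within that list leptin (Lep) did not overlap at 180 days, averaging 0.0499 units in black and 0.325 units in LY ovaries (log2 3.05, limma adjusted p = 0.307), with the black mean under the 0.2 unit limit. Luteal markers, 2 of 3, were 12.6 to 18.2 units in 90-day black and 5.63 to 7.70 units in 90-day LY ovaries. The oviduct gene Ovgp1 was 3.73 to 5.69 and 2.53 to 2.96 units at 90 days. At 180 days both overlapped, the luteal sum at 3.76 to 32.8 and 2.16 to 6.67 units. Ovgp1 was then 1.47 to 1.69 and 1.56 to 1.67 units. The luteal marker Akr1c18 averaged 10.2 units with an SD of 13.4 units in 180-day black ovaries. At 180 days Alas2 of red blood cells was 2.00 to 2.37 units in black and 2.60 to 4.01 units in LY ovaries. It overlapped at 90 days, at 1.21 to 1.59 and 1.28 to 1.53 units. The 3 of 5 adrenal cortex markers summed to 0.586 to 0.794 units in 180-day black and 0.820 to 0.996 units in 180-day LY ovaries, without overlap. Their sum overlapped at 90 days, at 0.514 to 0.563 and 0.533 to 0.813 units. The defining Cyp21a1 averaged 0.116 to 0.225 units over the groups. Of the 3 liver markers albumin averaged below 0.2 units in every group, and Apoa2 averaged 0.244 to 0.366 units. Ttr averaged 1.67 units with an SD of 2.04 units in 90-day black ovaries, and 0.361 to 0.463 units in the other groups. The sum of Apoa2 and Ttr was 0.523 to 0.728 units in 180-day black and 0.816 to 0.841 units in 180-day LY ovaries, and it overlapped at 90 days. The part of these cell markers in the enzymes' values was not tested.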

How the data were processed

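Ovaries of 12 mice in 4 groups of 3 were measured on 1-colour CodeLink arrays of 36227 probes. The deposited values are background-corrected linear intensity, which the authors scaled to the 50th percentile of each slide in GeneSpring, and deposited column medians were 1.00 (180 days) and 1.04 (90 days). The scaling of each gene to a median that the methods also name was not visible in these values. Each array was divided by its median again here, anything lower than 0.01 units was raised to 0.01, and the result was log2-transformed. A probe was tested where at least 1 of the group means reached 0.2 units and no group lacked a value, which held for 31359. From 166 to 503 values per array were missing, and 80.8% to 83.3% reached 0.2 units. Limma 3.58.1 in R 4.3.3 fitted 4 group means (8 residual degrees of freedom, prior 2.46), with Benjamini-Hochberg adjustment over all probes and a threshold of 0.05, and was tested on simulated data. With 3 arrays a group an exact permutation test could not go below 0.1, and array number limits the precision.

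Probe genes came from the platform annotation: 21615 probes had 1 gene symbol, 681 several and 13931 none. Genes with several probes were given by the brightest. Named were all members, list genes chosen by role or passing the threshold, and the genes most correlated with each member. The members and lists were chosen with earlier results of these data known. Alternatives covered scaling, floor, pseudocount, filter, fits per age, intensity trend, array weights, the methods' t-test, a replicate block, mean of probes and leaving out each array. The promoters of 8 of the 9 members were found in RefSeq's GRCm38.p6 table, and no promoter of Me2 was used here.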

Additional observations from a re-analysis of the deposited data

Results flagged for a closer look

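The genotype difference of Me1 changed by 1.19 on the log2 scale between the ages, with every LY array above every black array at 180 days and every LY array below at 90 days. The same opposite separation of all arrays drew attention to Idh1 (0.90), Tkt (0.70) and Nadk (0.70). For these genes the values are descriptions with no p, because 180-day results were known when the genes were chosen. Over all 31359 probes, 1.82% separated in this way, as did 5.91% of the brightest 10%.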

How the results depend on the processing

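The sign of all 7 genes at each age was kept under all 24 alternatives, and counts of probes passing between ages within a genotype stayed within 1.5 times. Counts of probes passing for the genotype difference moved more. The cause was not tested. Member counts at 180 days and for the difference between ages are printed for completeness: they rest on values known when the genes were chosen, so they test nothing about the genes. At 180 days 14 probes passed, 1 of them a member's (Me1). The probe count was 8 with cyclic loess, 52 with a floor of 0.2 units, 33 with a pseudocount of 0.1 units, 1 with no filter, 2 with each age fitted alone, 111 with an intensity trend, 157 with array weights, and 0 (adjusted) or 4202 (unadjusted) by the methods' t-test. The member count was 0 with cyclic loess, no filter, each age alone and the adjusted t-test, 2 with the trend and with array weights, and 5 with the unadjusted t-test. At 90 days 14 probes and 0 members passed. The probe count was 7, 132, 25, 4, 2, 200, 3, 1 and 2799 under these alternatives in the same order, and the member count was 1 with the trend and 2 with the unadjusted t-test. For the difference between ages 0 probes passed. There were 2 with quantile normalization, 18 with the floor of 0.2 units, 21 with the pseudocount, 198 with the trend and 2 with array weights, holding 1 member with the floor, 1 with the pseudocount and 3 with the trend. Leaving out 1 array gave 1 to 21 probes and 0 to 1 members at 180 days, 1 to 72 probes and 0 members at 90 days, and 0 to 36 probes and 0 to 1 members for the difference between ages. Arrays of the same age and replicate number were weakly correlated (correlation of deviations from group means -0.0723 to 0.148), which does not exclude a pairing of animals. With the replicate block 3 probes and 0 members passed at 180 days, 2 probes and 0 members at 90 days and 0 probes between ages. Mthfd1, under 1.1 units on every array, and the genes below 0.2 units are limited by signal over background.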

Other observations

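With each group's mean taken away, the brighter Me2 probe and Nadk varied together over the 12 arrays (Pearson r = 0.91, against 0.39 with age means taken away), and the second Me2 probe gave r = 0.66 with Nadk. Tkt and Mthfd1 gave r = 0.87 in the same way. These are the highest of 28 pairs and are descriptions over the same 12 animals.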
